A study of Mus musculus with 8 samples.

Results

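The Hox genes are the homeobox genes of the HoxA, HoxB, HoxC and HoxD clusters, which lie on mouse chromosomes 6, 11, 15 and 2. The members were taken by symbol, as every gene named Hox with a cluster letter from a to d and a paralog number. The annotation holds 39 such symbols, and 38 of them were among the 37583 gene identifiers counted here. Hoxd4 is not analysed here.

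Hox genes encode transcription factors with a homeodomain, the helical domain that binds DNA, and they give cells their position along the body axis. Within a cluster the genes lie in the order of their paralog numbers, with low numbers active towards the head and early in the embryo and high numbers active towards the tail and later. In the mouse kidney the Hox11 paralogs (Hoxa11, Hoxc11 and Hoxd11) are known for their joint role in the metanephric mesenchyme, where they act with Eya1 and Pax2 upstream of Six2 and Gdnf at the start of kidney formation.

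The study sequenced RNA of whole mouse kidneys, with 8 libraries in all. Of these, 4 were labelled knockout, from Six2Cre+ animals with TFAP2A fl/fl and TFAP2B fl/WT alleles, so that 1 allele of Tfap2b was left unfloxed, and 4 were labelled wildtype, from control littermates given as WT. Six2-driven Cre acts in nephron progenitors and their descendants, so stroma, vessels and the ureteric tree, from which collecting ducts form, lie outside its known site. The labels give no age, sex or litter and do not say whether the WT animals carry Cre or floxed alleles. Nothing says that the libraries come from separate animals, so p-values measure only the spread between these libraries, which may be technical.

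Counts assigned to genes totalled 13871861 to 15763526 under the knockout label and 14721847 to 16629301 under the wildtype label. The targeted genes did not separate the labels. Tfap2a stood at 5.65, 3.64, 5.12 and 5.81 CPM (counts-per-million, a gene's count divided by a library size scaled with the TMM method) in knockout replicates 1 to 4, against 4.08, 4.70, 5.31 and 2.78 CPM in wildtype replicates 1 to 4. Tfap2b stood at 69.2, 103.4, 58.0 and 89.4 CPM under the knockout label, against 100.4, 51.8, 74.6 and 86.3 CPM under the wildtype label. The labels do not give the floxed exons and the counts cover whole genes, so groups are called by their labels below. Kidney markers were present in every library, with Umod, made by the thick ascending limb, at 4110 to 5006 CPM under the knockout label and 3562 to 4236 CPM under the wildtype label. Adrenal cortex markers summed to 918.8 CPM in knockout replicate 2 and 889.4 CPM in wildtype replicate 1, and to at most 11.4 CPM in the other libraries. Heat-shock transcripts summed to 744.5 and 1205 CPM in knockout replicates 2 and 4, and to at most 344.7 CPM elsewhere.

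The promoters of 5 members are printed because they stand for the outcomes described below, with 2 members of the HoxD cluster that were high in the kidney, 2 that were silent, and the member with the lowest p between the labels. Each runs from 250 bases before to 50 bases after a gene start of RefSeq on GRCm38.p6, 5′ to 3′ on the gene's strand. Capitals mark GCCNNNGGC, the palindromic letters bound by AP-2 factors such as those of the targeted genes. Hoxd8 (chr2:74704365-74704664, plus strand) was the highest member, Hoxd9 (chr2:74697513-74697812, plus strand) was also high, Hoxd12 (chr2:74674763-74675062, plus strand) and Hoxd13 (chr2:74667975-74668274, plus strand) were silent, and Hoxa5 (chr6:52204538-52204837, minus strand) had the lowest p.
Hoxd8: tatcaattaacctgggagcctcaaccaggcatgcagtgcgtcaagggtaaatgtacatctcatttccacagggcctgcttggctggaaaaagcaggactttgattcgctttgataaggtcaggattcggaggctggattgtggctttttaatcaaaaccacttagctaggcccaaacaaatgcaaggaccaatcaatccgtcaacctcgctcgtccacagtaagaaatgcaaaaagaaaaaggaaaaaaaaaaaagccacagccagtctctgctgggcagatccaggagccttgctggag
Hoxd9: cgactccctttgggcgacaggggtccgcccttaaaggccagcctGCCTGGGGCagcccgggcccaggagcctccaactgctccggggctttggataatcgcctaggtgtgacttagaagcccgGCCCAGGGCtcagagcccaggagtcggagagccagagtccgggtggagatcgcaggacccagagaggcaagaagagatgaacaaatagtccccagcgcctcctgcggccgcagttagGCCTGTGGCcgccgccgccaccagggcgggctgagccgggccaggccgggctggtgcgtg
Hoxd12: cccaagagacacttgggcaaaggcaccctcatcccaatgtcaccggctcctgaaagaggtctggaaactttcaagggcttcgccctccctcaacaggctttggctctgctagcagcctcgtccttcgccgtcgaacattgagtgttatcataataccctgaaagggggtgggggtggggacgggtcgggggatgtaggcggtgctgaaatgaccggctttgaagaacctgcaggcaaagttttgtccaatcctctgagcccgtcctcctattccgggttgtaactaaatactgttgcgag
Hoxd13: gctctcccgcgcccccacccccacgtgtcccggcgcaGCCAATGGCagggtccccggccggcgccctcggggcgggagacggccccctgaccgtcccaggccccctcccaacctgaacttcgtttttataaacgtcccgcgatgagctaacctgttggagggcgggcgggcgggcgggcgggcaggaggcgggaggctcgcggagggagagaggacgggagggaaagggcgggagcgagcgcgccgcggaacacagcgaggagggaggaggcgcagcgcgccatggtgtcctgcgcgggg
Hoxa5: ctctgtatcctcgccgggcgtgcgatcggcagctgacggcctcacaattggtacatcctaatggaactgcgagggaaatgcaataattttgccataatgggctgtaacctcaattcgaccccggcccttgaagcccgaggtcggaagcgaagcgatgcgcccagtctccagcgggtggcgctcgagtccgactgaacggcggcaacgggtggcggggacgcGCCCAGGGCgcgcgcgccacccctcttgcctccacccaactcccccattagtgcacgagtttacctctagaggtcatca
The Hoxd9 window held 3 matches, the Hoxd13 and Hoxa5 windows 1 each, and the Hoxd8 and Hoxd12 windows none. RefSeq's table had 24 windows for 22 Hox symbols, Hoxd4 among them, and 6 windows (25.0%) held the letters, against 16.6% of all 32851 windows of the same length. Of the windows of expressed members 3 of 18 held them, and of those of silent members 3 of 5 did. The silent members' windows had a median GC content of 69.7% and a median of 29 CG pairs, while those of expressed members had 56.5% and 14.5 and all windows 52.7% and 7. The letters TGATNNAT, bound by PBX and HOX proteins together and searched on both strands, were in 4 of the 24 Hox windows (16.7%) and in 8.85% of all windows. The second window of Hoxd11 and the window of Hoxb1 held both kinds of letters. These are letters in a window and show no binding.

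Most Hox genes were transcribed in the kidney, and 6 of the 8 silent members belonged to the highest paralog groups. A member was called expressed when it had enough counts to pass edgeR's filterByExpr filter, silent when no library had more than 3 counts, and low otherwise. By these rules 29 members were expressed, 1 was low and 8 were silent. All 26 members with paralog numbers 2 to 10 were expressed, in all 4 clusters. All 6 members of paralog groups 12 and 13 were silent. The lowest count of any expressed member in any library was 14, and the highest count of any silent member was 2.

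The HoxA cluster had 10 expressed members and 1 silent one, Hoxa13. The HoxB cluster had 8 expressed members and 2 silent ones, Hoxb1 and Hoxb13. In the HoxC cluster 6 members were expressed, Hoxc11 was low, and Hoxc12 and Hoxc13 were silent, and in the HoxD cluster 5 were expressed and Hoxd1, Hoxd12 and Hoxd13 were silent. Hoxb1 and Hoxd1 were silent members with a low paralog number, and Hoxb1 is known for its part in a single segment of the embryonic hindbrain. Hoxb13, known from the prostate and tail, and Hoxd13, known from digits and genitalia, had 0 counts in every library, which allows at most 0.223 CPM in the smallest library. The other silent members had totals of 1 to 7 counts over 8 libraries, with 7 for Hoxa13, which acts in digits, hindgut and the lower urogenital tract. Floors of this kind cover counting error only.

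**Figure D1:**
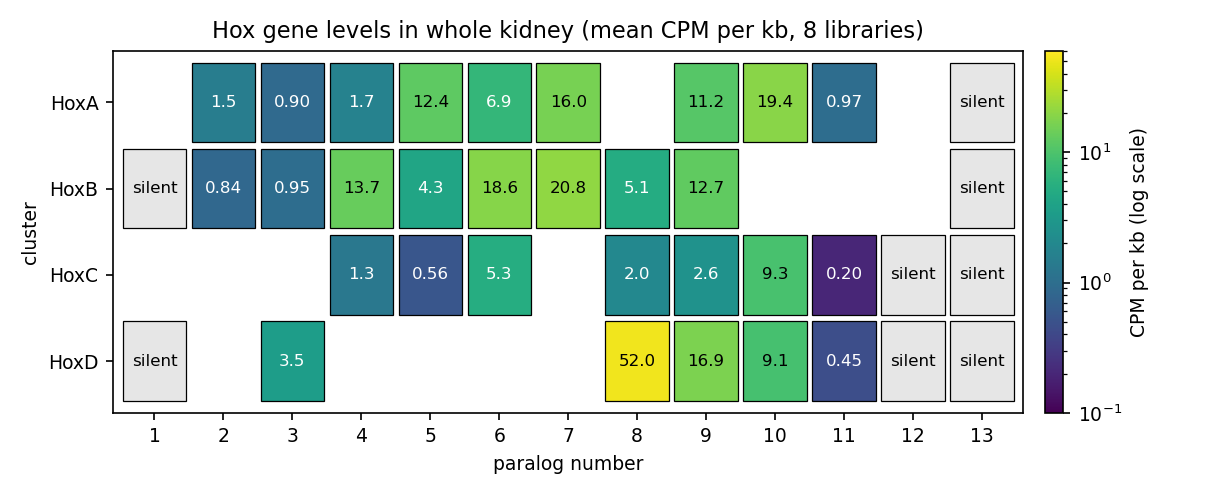
Mean level of each analysed Hox gene over 8 libraries (CPM per kilobase of exon, colour on a log scale), with clusters as rows and paralog numbers as columns. Grey cells are the 8 silent members, and empty positions hold no gene that is drawn. The brightest cell is Hoxd8 at 52.0, and the levels drop between paralog numbers 10 and 11 in the 3 clusters that have both.

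Levels of different genes were compared per kilobase of exon (CPM per kb), since longer transcripts collect more reads. Paralog groups 6 to 10, with 15 members, held 82.7% of the summed CPM per kb of all Hox genes, with a range of 80.2% to 84.6% over libraries. Groups 1 to 5 held 16.6% and groups 11 to 13 held 0.659%. By cluster, HoxD held 32.6% of the sum, HoxB 30.4%, HoxA 28.6% and HoxC 8.46%. The HoxC sum was 15.5, 25.5, 20.6 and 24.1 CPM per kb in knockout replicates 1 to 4, against 23.6, 20.2, 19.0 and 21.7 CPM per kb in wildtype replicates 1 to 4. It was lower than the sum of each other cluster in every library.

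Of the 29 expressed members, 15 lay above 4.87 CPM per kb, the median of all tested genes. The order was led by Hoxd8 at 52.0 ± 4.62 CPM per kb (mean ± SD, n = 8 libraries), higher than 93.5% of the 14069 tested genes with a known length. The next was Hoxb7, whose promoter is widely used to drive transgenes in the ureteric tree, at 20.8 ± 3.23 CPM per kb. Hoxd8 exceeded Hoxb7 in 8 of 8 libraries, by 2.17-fold to 2.81-fold. After it came Hoxa10 (19.4 ± 1.73), Hoxb6 (18.6 ± 5.49), Hoxd9 (16.9 ± 1.55) and Hoxa7 (16.0 ± 1.59), and then Hoxb4 (13.7 ± 3.11), Hoxb9 (12.7 ± 1.83), Hoxa5 (12.4 ± 3.57) and Hoxa9 (11.2 ± 1.21 CPM per kb). From Hoxb7 to Hoxa9, neighbours in this order did not differ beyond their spread, each exceeding the next in only 4 to 6 of 8 libraries. The same 10 members were highest in the knockout libraries alone, in the wildtype libraries alone, and with other exon lengths, although Hoxa9 moved to rank 5 when its longest transcript set the length.

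Neighbours on the chromosome could differ sharply. On the tail side of the clusters, Hoxa10 was 20.03-fold higher per kb than Hoxa11, from which it is 1251 bases away, and Hoxd10 was 20.3-fold higher than Hoxd11, 4907 bases away. With lengths of exons that no other counted gene overlaps, the first ratio was 13.03, since Hoxa11 shares exon bases with Hoxa11os. The second ratio was 20.3. Both steps were seen in 8 of 8 libraries. Hoxc10 stood at 9.30 CPM per kb and Hoxc11 at 0.198, where Hoxc11 had 2 to 10 counts per library. Hoxd11 had 16 to 46 counts per library, and Hoxd12, 1851 bases further on, had at most 1. On the head side the step went the other way, with Hoxb3 at 0.0697 times the level of Hoxb4, Hoxd3 at 0.0664 times that of Hoxd8, and Hoxa4 at 0.138 times that of Hoxa5, again in 8 of 8 libraries. With unshared exon lengths these ratios were 0.148, 0.0728 and 0.138. For Hoxd3 that length took no account of bases shared with Hoxd4, which is not analysed and whose number lies between Hoxd3 and Hoxd8. Distances are those of GENCODE M21 on GRCm38.

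Members also differed in how steady they were. Hoxd10, known from lumbar motor neurons and the hindlimb, had a coefficient of variation of 7.94% over the 8 libraries, Hoxd8 8.88% and Hoxa10 8.91%. Hoxa6 varied most, at 38.7%, from 2.47 CPM in knockout replicate 1 to 10.3 CPM in knockout replicate 4, a 4.16-fold span within 1 label. Hoxd11 (30.1%), Hoxb6 (29.6%) and Hoxa5 (28.8%) came after it, and of these Hoxd11 had few counts. Hoxd10, Hoxd11 and Hoxa6 are singled out here after their values were seen.

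The comparison of labels asks which whole-kidney transcripts differ between them, where 1 allele of Tfap2b was left unfloxed and Cre acts in nephron progenitors and their descendants. Counts of Tfap2a and Tfap2b did not separate the labels, so a lack of calls does not show independence from the AP-2 factors. No Hox gene passed the test between knockout and wildtype, and no member's 95% interval reached below -0.90 or above 1.03 on the log2 scale. Of 29 members tested with edgeR's quasi-likelihood test, 0 had an adjusted p below 0.05, as for all 14433 genes (0.0%), and the members' adjusted p-values ran from 0.957 to 0.996. DESeq2 called 4 genes, none of them a Hox gene, and limma-voom called 0. At an unadjusted p below 0.05 there were 2 members (6.90%), Hoxa5 and Hoxb3, against 4.0% of all genes. There were 5 such members without knockout replicate 3, where 1252 of 14678 genes lay below that p. There was 1 each without knockout replicate 1, knockout replicate 2 or wildtype replicate 1 (462 of 14573, 427 of 14635 and 1250 of 14657 genes). There were 0 without knockout replicate 4, wildtype replicate 2 or wildtype replicate 4 (536 of 14653, 343 of 14621 and 403 of 14600 genes). The log2 differences, knockout minus wildtype, ran from -0.47 to 0.51 with a median of 0.05, where the median of all genes was 0.01. They were positive for 18 members (62.1%) and negative for 11, against 51.3% positive among all genes. For 28 of 29 members (96.6%) the 95% interval lay within 1 log2 unit of 0, against 86.5% of all genes, and the exception was Hoxd11, whose interval reached 1.03. In a bulk sample, fewer cells of a type and less RNA per cell cannot be told apart.

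**Figure D2:**
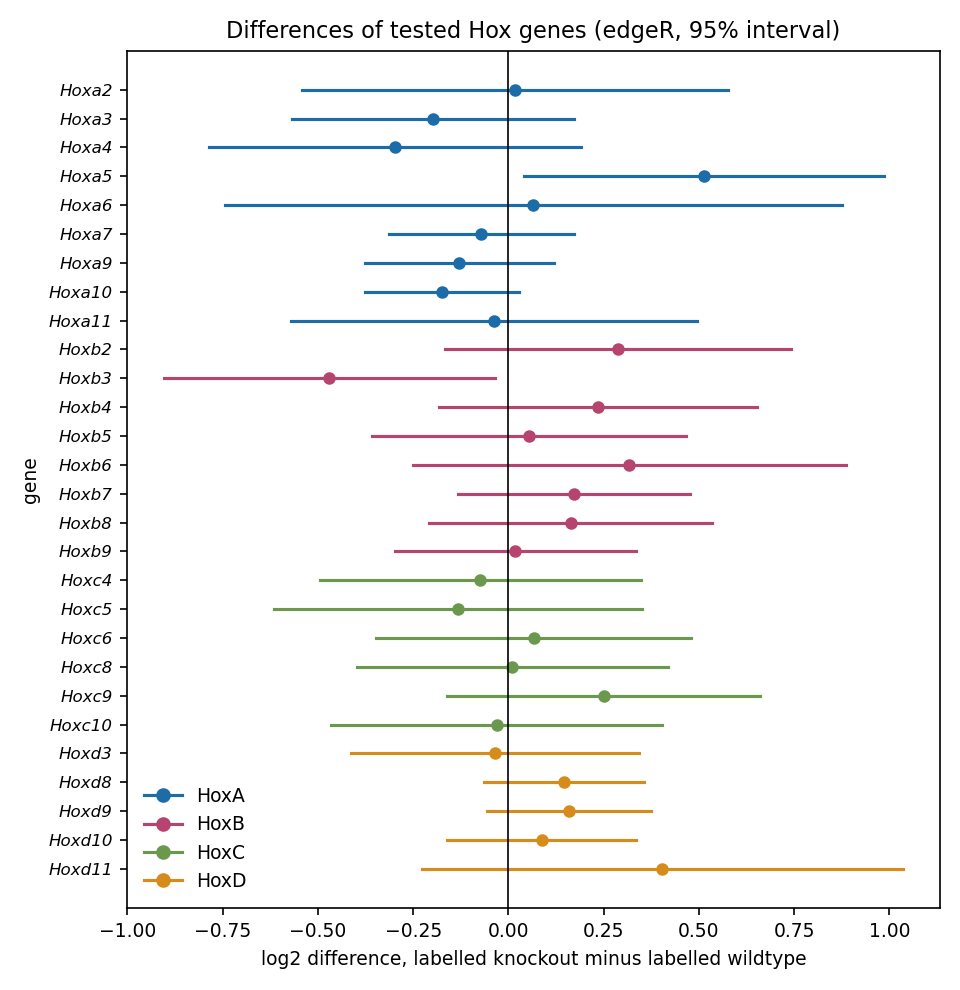
Log2 difference (labelled knockout minus labelled wildtype) of tested Hox genes with its 95% interval from edgeR, coloured by cluster. Points lie between -0.47 and 0.51, and the intervals of Hoxa5 and Hoxb3 alone leave out 0 before adjustment.

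Among the anterior members, Hoxa2, which sets the identity of a branchial arch, had 3.81, 2.62, 1.93 and 2.07 CPM in knockout replicates 1 to 4, against 2.59, 2.69, 2.15 and 2.91 CPM in wildtype replicates 1 to 4. The groups overlapped, knockout replicate 1 was the highest library, and the log2 difference was 0.02 (SE 0.25). Hoxd3, which shapes the first neck vertebrae, had 11.6, 17.9, 11.7 and 16.0 CPM under the knockout label, against 16.3, 12.3, 16.0 and 14.02 CPM under the wildtype label. These groups overlapped too, with a log2 difference of -0.03 (SE 0.17), and 9.26% of the exon bases of Hoxd3 are shared with Hoxd4 on the annotation.

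Hoxb3, which acts in the hindbrain and pharynx, was the 1 member whose groups did not overlap (3.45% of members, against 1.97% of all genes). It had 3.68, 4.34, 2.97 and 2.61 CPM in knockout replicates 1 to 4, against 5.10, 4.76, 4.42 and 4.59 CPM in wildtype replicates 1 to 4. Every library labelled knockout lay below every library labelled wildtype, and the closest pair was knockout replicate 2 and wildtype replicate 3. The log2 difference was -0.47 (SE 0.20, 95% interval -0.90 to -0.04), with an unadjusted p of 0.0363 and an edgeR adjusted p of 0.957. On the annotation 52.9% of the exon bases of Hoxb3 are shared with Hoxb3os, an antisense RNA. The counting ignored strand, so a read lying there could not be assigned to either gene. Reads left ambiguous between genes entered no gene's count. Hoxb3os itself was at 14.4 ± 2.22 CPM under the knockout label and 15.7 ± 2.12 CPM under the wildtype label, with a log2 difference of -0.13 (SE 0.15).

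Hoxa5, which patterns the lower neck and the lung, had the largest difference among members. It had 29.1, 32.0, 19.7 and 28.5 CPM in knockout replicates 1 to 4, against 26.5, 14.5, 20.7 and 14.9 CPM in wildtype replicates 1 to 4. The groups overlapped, since knockout replicate 3 was low and wildtype replicate 1 was high for their labels. The log2 difference was 0.51 (SE 0.21, 95% interval 0.04 to 0.99), with an unadjusted p of 0.0357 and an edgeR adjusted p of 0.957. Hoxb4, known from the growth of blood stem cells, had 35.8, 49.9, 25.3 and 41.0 CPM under the knockout label, against 38.4, 33.4, 28.95 and 28.5 CPM under the wildtype label. Knockout replicate 3 was the lowest library of all, the groups overlapped, and the log2 difference was 0.24 (SE 0.19), or 0.07 without knockout replicate 2 and 0.39 without knockout replicate 3.

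Among the central members, Hoxb6, which patterns the thoracic skeleton, had 44.4, 48.0, 21.7 and 47.6 CPM in knockout replicates 1 to 4, against 45.1, 27.2, 28.4 and 29.3 CPM in wildtype replicates 1 to 4. It fell into high and low libraries that crossed the labels, with knockout replicate 3 among the low ones and wildtype replicate 1 among the high ones, and its log2 difference was 0.32 (SE 0.25). It was 0.52 without knockout replicate 3, likewise 0.52 without wildtype replicate 1, and 0.03 without the 2 libraries highest in heat-shock transcripts, knockout replicates 2 and 4. Hoxa7, also a gene of the thoracic skeleton, was steady, at 43.7, 47.5, 43.0 and 45.5 CPM under the knockout label, against 43.6, 52.8, 39.9 and 52.5 CPM under the wildtype label. The wildtype values enclosed all of the knockout values, and the log2 difference was -0.07 (SE 0.11). Hoxb7 had 43.0, 31.4, 29.98 and 31.6 CPM under the knockout label, against 34.1, 25.9, 31.2 and 29.6 CPM under the wildtype label. Knockout replicate 1 stood above all other libraries, the rest overlapped, and the log2 difference was 0.17 (SE 0.14), or 0.04 without knockout replicate 1 and 0.11 without wildtype replicate 2.

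Hoxd8, the most abundant member, had 165.7, 151.9, 132.4 and 149.5 CPM in knockout replicates 1 to 4, against 144.1, 129.3, 130.0 and 138.7 CPM in wildtype replicates 1 to 4. In the libraries labelled knockout 3 of 4 lay above every wildtype library, and knockout replicate 3 lay among the wildtype values. The log2 difference was 0.15 (SE 0.09, 95% interval -0.06 to 0.36), with an edgeR adjusted p of 0.957, and it was 0.09 without knockout replicate 1. These libraries held 1784 to 2612 counts of Hoxd8 each, and its interval was among the narrowest of the members.

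Among the posterior members, Hoxd9, which acts with its paralogs in limb and mammary gland, had 36.7, 43.0, 35.3 and 37.3 CPM under the knockout label, against 36.2, 32.6, 32.6 and 35.1 CPM under the wildtype label. Only knockout replicate 3 lay below a wildtype library, namely wildtype replicate 1, and the log2 difference was 0.16 (SE 0.10), or 0.09 without knockout replicate 2. Hoxb9 had 29.8, 41.1, 28.0 and 32.7 CPM under the knockout label, against 37.2, 27.2, 34.2 and 31.5 CPM under the wildtype label, and the groups overlapped throughout (log2 difference 0.02, SE 0.14). Hoxa9, known from blood cell development, had 65.2, 55.2, 68.5 and 50.6 CPM under the knockout label, against 64.4, 65.4, 70.7 and 61.4 CPM under the wildtype label. Knockout replicates 2 and 4 were below all wildtype libraries and the other two were within their range, giving a log2 difference of -0.13 (SE 0.11).

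Hoxa10, which patterns the lumbar skeleton and the uterus, had 56.0, 59.9, 66.6 and 55.9 CPM in knockout replicates 1 to 4, against 62.7, 67.4, 70.5 and 68.3 CPM in wildtype replicates 1 to 4. Only knockout replicate 3 lay above a wildtype library, and the log2 difference was -0.17 (SE 0.09, edgeR adjusted p 0.957). Its paralog Hoxc10 had 10.7, 19.8, 17.7 and 22.1 CPM under the knockout label, against 17.4, 17.0, 16.9 and 20.5 CPM under the wildtype label. Knockout replicate 1 was far below all other libraries, and the log2 difference was -0.03 (SE 0.20), or 0.15 without that library. Of the Hox11 group, Hoxa11 had 2.73, 1.85, 2.23 and 1.94 CPM under the knockout label, against 1.97, 2.00, 1.96 and 3.04 CPM under the wildtype label. These groups overlapped (log2 difference -0.04, SE 0.24), and 35.0% of the exon bases of Hoxa11 are shared with the antisense Hoxa11os. Hoxd11 averaged 2.15 ± 0.73 CPM under the knockout label and 1.63 ± 0.22 CPM under the wildtype label (SD, n = 4 each), with a log2 difference of 0.40 (SE 0.28), or 0.22 without knockout replicate 2. Hoxc11 was not tested, with means of 0.329 CPM under the knockout label and 0.473 CPM under the wildtype label.

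**Figure D3:**
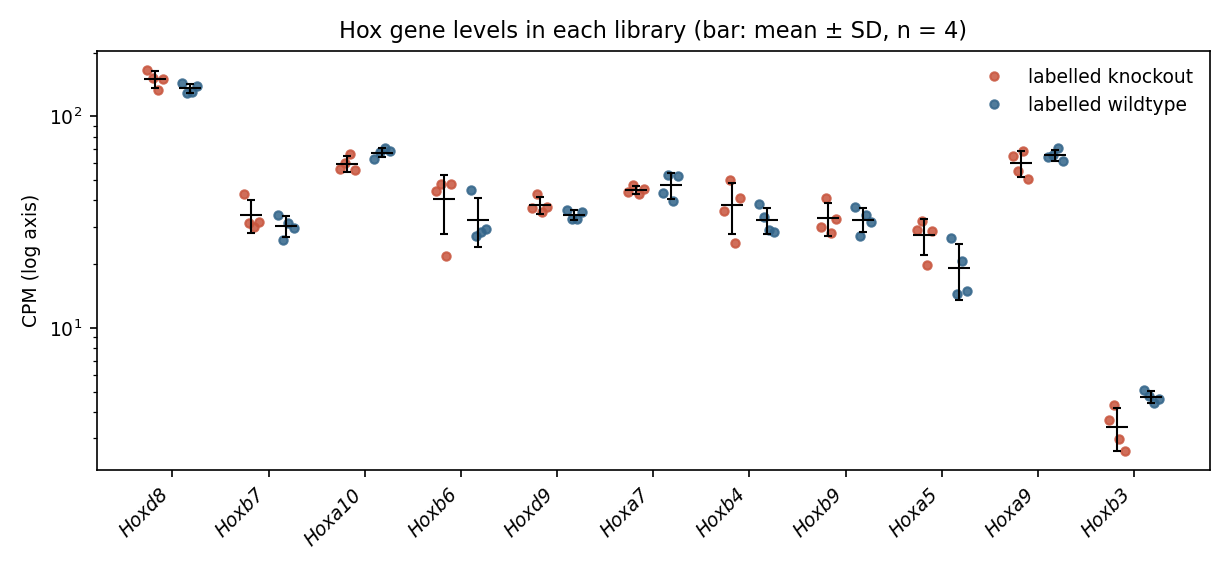
CPM in each library (log axis) of the 10 Hox genes highest per kb and of Hoxb3, with libraries labelled knockout left of the wildtype ones and bars for mean ± SD (n = 4). Hoxb3 is the only one of the 11 genes whose groups do not overlap, and Hoxb6 splits into high and low libraries within both labels.

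The remaining tested members had log2 differences between -0.30 (Hoxa4, SE 0.22) and 0.29 (Hoxb2, SE 0.21), all with overlapping groups. They were Hoxa3, Hoxa4, Hoxa6, Hoxb2, Hoxb5, Hoxb8, Hoxc4, Hoxc5, Hoxc6, Hoxc8, Hoxc9 and Hoxd10. Of these Hoxb5 averaged 12.1 ± 2.06 CPM under the knockout label and 11.7 ± 2.65 CPM under the wildtype label, and Hoxd10 averaged 17.0 ± 1.25 CPM under the knockout label and 16.0 ± 1.34 CPM under the wildtype label. Hoxa6, a gene of the thoracic skeleton, had 2.47, 7.401, 4.68 and 10.3 CPM in knockout replicates 1 to 4, against 7.21, 6.64, 5.12 and 4.78 CPM in wildtype replicates 1 to 4. The knockout values enclosed all of the wildtype values, with a log2 difference of 0.07 (SE 0.36) that turned to -0.29 without knockout replicate 4. Without both libraries highest in heat-shock transcripts it was -0.74, with an unadjusted p of 0.0466 and an edgeR adjusted p of 0.743. Within HoxC, Hoxc6 averaged 13.1 ± 2.92 CPM under the knockout label and 12.5 ± 2.36 CPM under the wildtype label, and Hoxc8 averaged 5.56 ± 1.04 CPM under the knockout label and 5.52 ± 0.77 CPM under the wildtype label. Hoxc9, which helps to define the thoracic spinal cord, averaged 6.96 ± 1.19 CPM under the knockout label and 5.85 ± 1.07 CPM under the wildtype label (log2 difference 0.25, SE 0.19). Hoxb8, known from spinal cord and microglia, averaged 14.2 ± 3.23 CPM under the knockout label and 12.7 ± 1.06 CPM under the wildtype label (log2 difference 0.16, SE 0.17). The 8 silent members were silent under both labels.

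Libraries carried Hox differences of their own. Knockout replicate 2 had the highest value of all libraries for 12 of the 29 expressed members, and knockout replicate 3 had it for 0. The lowest value fell in knockout replicate 3 for 6 members, in knockout replicate 1 for 6 and in wildtype replicate 2 for 6. All Hox genes together summed to 262.3, 285.1, 225.9 and 269.0 CPM per kb in knockout replicates 1 to 4, against 267.6, 228.6, 235.7 and 239.9 CPM per kb in wildtype replicates 1 to 4. Adipose markers moved with the high and low libraries of Hoxb6 and Hoxa5. All 5 markers of that list passed the filter, none was at 0, and they summed to 725.5, 768.1, 230.0 and 616.1 CPM under the knockout label, against 789.6, 269.1, 222.0 and 428.9 CPM under the wildtype label. Principal cell markers, of the collecting duct, of which 4 of 5 passed the filter, summed to 963.4, 901.9, 501.2 and 1050 CPM under the knockout label, against 641.4, 498.5, 564.6 and 618.5 CPM under the wildtype label. Erythroid markers, all 3 above the filter, summed to 6158, 976.9, 159.3 and 551.1 CPM under the knockout label, against 1106, 154.6, 103.0 and 210.8 CPM under the wildtype label. Reads assigned to no feature made up 16.2%, 14.5%, 11.6% and 13.7% of reads in knockout replicates 1 to 4. In wildtype replicates 1 to 4 they made up 14.4%, 12.4%, 12.6% and 12.95%. The counts do not say whether such reads lay in introns or between genes. The 4 libraries high for Hoxb6 were knockout replicates 1, 2 and 4 and wildtype replicate 1. They were also the 4 highest in the adipose and erythroid sums and in the share of reads assigned to no feature. The same held for kidney lists, namely the principal cell, intercalated cell and thick ascending limb sums. It did not hold for the proximal tubule, podocyte or endothelium sums. Gene by gene, Umod, Slc12a1 and Aqp2 had these 4 libraries highest, but no other principal cell gene and no intercalated cell gene did. Scnn1g, Scnn1b and Slc4a1 were lowest in knockout replicate 4, at 46.8, 44.8 and 43.3 CPM. The adipose and principal cell sums were low in knockout replicate 3, and the adipose sum was highest in wildtype replicate 1. The part of these cells, and of reads assigned to no feature, in the Hox values was not tested. Without the libraries that had adrenal transcripts, and without those with the most heat-shock transcripts, 0 members were called.

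**Figure D4:**
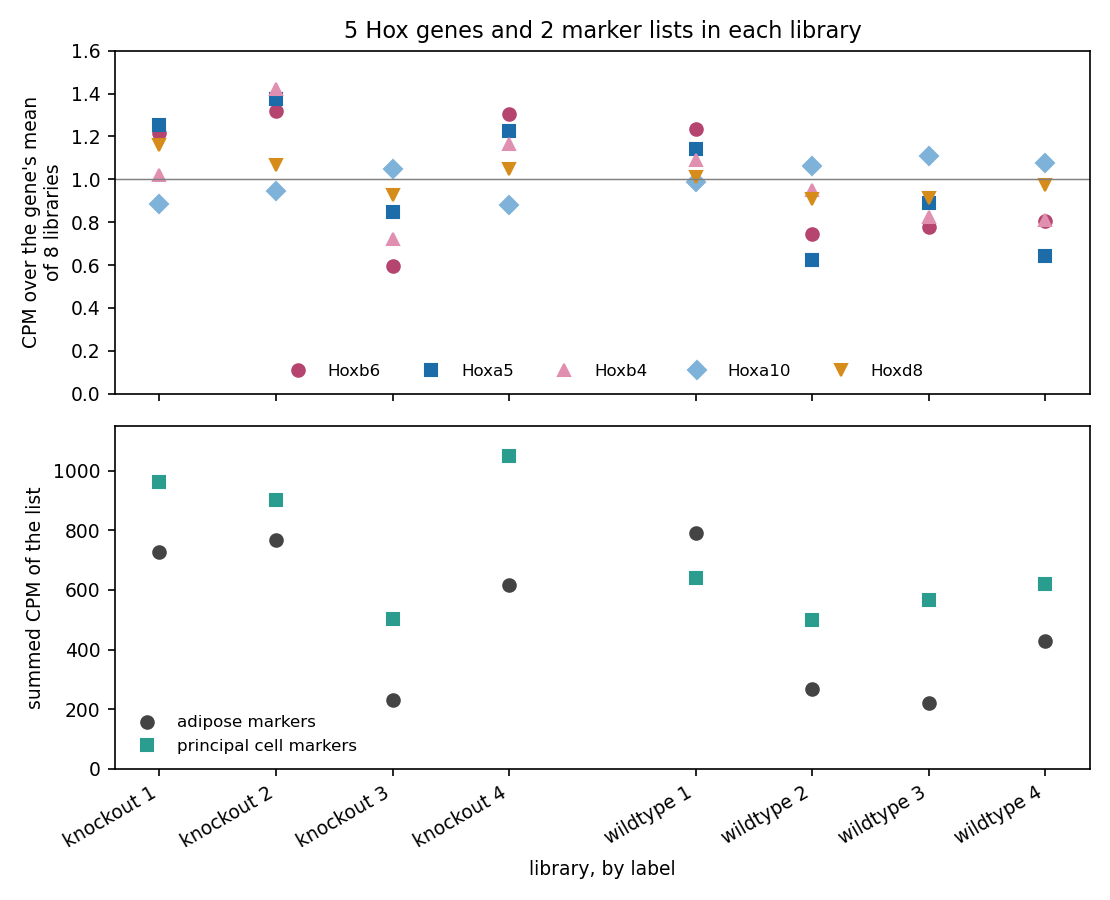
Upper panel, CPM of 5 Hox genes in each library divided by the gene's mean over 8 libraries. Lower panel, summed CPM of the adipose and principal cell marker lists, with libraries labelled knockout on the left. Knockout replicate 3 is low for Hoxb6, Hoxa5 and Hoxb4 and in both marker sums, and wildtype replicate 1 is high for Hoxb6 and in the adipose sum.

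Among partners and inputs of Hox proteins, 0 genes passed the test in either direction. Of the 9 PBX and MEIS class cofactors, which bind DNA together with Hox proteins, 8 were tested and 3 had positive log2 differences, with a median of -0.03. Pbx2 was at 10.1 and Pknox1 at 5.50 CPM per kb, against 0.384 for Meis1 and 1.56 for Meis2. Of 26 chromatin regulators of the Hox clusters (Polycomb and trithorax proteins and Ctcf), all were tested and 12 had positive differences, with a median of 0.00 on the log2 scale. The Polycomb genes Phc2 and Phc3 differed in opposite directions, with log2 differences of 0.24 (SE 0.08) and -0.24 (SE 0.10), and neither passed.

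Of 16 early kidney factors, 10 were tested, 8 had positive log2 differences and the median was 0.11. Six2 had 0 counts in every library and Gdnf at most 4, while Pax2 was at 7.72 and Pax8 at 15.2 CPM per kb. Wt1, a podocyte gene in the grown kidney, was at 2.81 ± 0.29 CPM under the knockout label and 1.67 ± 0.90 CPM under the wildtype label, with a log2 difference of 0.75 (SE 0.33, edgeR adjusted p 0.957). Of 18 retinoid and Cdx genes, which set Hox expression in the embryo, 12 were tested, 9 had positive differences and the median was 0.19. Aldh1a1, which makes retinoic acid, was at 17.5 ± 3.93 CPM under the knockout label and 12.0 ± 2.61 CPM under the wildtype label, with a log2 difference of 0.54 (SE 0.20). Aldh1a3, a related enzyme, was at 5.49 ± 2.45 CPM under the knockout label and 9.25 ± 2.18 CPM under the wildtype label, with a difference of -0.76 (SE 0.30), and neither passed (edgeR adjusted p 0.957 for each). The 6 ParaHox genes, relatives of the Hox genes outside the clusters, had too few counts to test and summed to at most 0.267 CPM in any library.

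Of 34 genes in or beside the clusters, 32 were in the files and 20 were tested, 13 with positive log2 differences and a median of 0.03. Expressed and silent genes lay side by side there too. Hotairm1, a noncoding RNA at the head end of HoxA, was at 8.28 CPM per kb, and Hoxb5os at 15.0, while Hoxb5, which it overlaps on the other strand, was at 4.27. A read lying where Hoxb5os and Hoxb5 overlap could not be assigned to either gene, and ambiguous reads entered no gene's count. Hottip, beside the silent Hoxa13, had at most 2 counts in a library, and Hotair, from the HoxC cluster between Hoxc11 and Hoxc12, at most 3. Evx1 and Evx2, the homeobox genes beyond Hoxa13 and Hoxd13, had 0 counts. In contrast Hibadh, a metabolic gene beyond Evx1, was at 62.6 CPM per kb and Mtx2, at the head end of HoxD, at 22.1.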

How the data were processed

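Total RNA of whole kidneys was made into directional libraries, per the labels' protocols. The authors deposited raw, whole-number read counts per gene. STAR, HTSeq and edgeR on build mm9 are named, per the submitters' processing notes, and the annotation they counted on is not given in the sources used here. The deposited file names say that strand was ignored, so reads shared by overlapping antisense genes could not be assigned to either gene. Lines that name no gene (reads outside genes 11.6% to 16.2%, ambiguous reads 2.05% to 2.31%, reads without a unique place 15.8% to 20.9%) entered neither library sizes nor tests.

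Of 37583 identifiers, 32860 matched a symbol. Exon lengths, distances and overlaps were looked up by identifier in GENCODE M21 on GRCm38, and promoters are those of RefSeq on GRCm38.p6, so lengths may differ from the mm9 annotation the authors counted on. Nothing was converted between builds.

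The test was the two-sided quasi-likelihood test (edgeR 4.0.16, R 4.3.3), with TMM normalization, filterByExpr (minimum count 10, minimum total count 15), genotype as the only term and Benjamini-Hochberg adjustment over 14433 genes at 0.05. CPM per kb is CPM divided by the length of all exons of a gene. Counts of this comparison were simulated, over 14291 genes with 200 changed. The test recovered 68.7% of changes of 1 and 93.9% of changes of 2 on the log2 scale and called 11 unchanged genes. Its 95% intervals covered the true value for 95.6% of genes. Each gene was simulated independently, without shifts shared by whole libraries, so these rates may not hold for the real counts. No library copied another, since chi-square per gene was 10.1 to 78.4 over all pairs. This value is near 1 where libraries differ by counting error alone, and lower still for exact copies.

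Members and gene lists were chosen with earlier results of these data known. The rule for named genes took the 10 members highest per kb, the highest of each cluster and paralog group, and the 5 with the lowest p. Alternatives were other normalizations, filters, lengths and rules for silence, DESeq2 1.42.0, limma-voom with limma 3.58.1, a replicate block, each library left out, and libraries with adrenal or heat-shock transcripts left out. Figures were drawn with matplotlib 3.10.9. Counts cover all members, but values of a few named genes are left out here.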

Additional observations from a re-analysis of the deposited data

Results flagged for a closer look

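Each expressed Hox gene was checked in each label for a library far from the other 3 by Dixon's test, in 58 groups of 4 libraries. Chance flags about 1 in 20 such groups, or 2.9 here, and 5 were found. Hoxb6 stood out under both labels, at 21.7 CPM in knockout replicate 3 against 44.4 to 48.0 CPM in the other libraries labelled knockout, and at 45.1 CPM in wildtype replicate 1 against 27.2 to 29.3 CPM in the other libraries labelled wildtype. Hoxb7 was at 43.0 CPM in knockout replicate 1, where the others of that label had 29.98 to 31.6 CPM. Wildtype replicate 4 stood out for Hoxc10, at 20.5 CPM against 16.9 to 17.4 CPM, and for Hoxa11, at 3.04 CPM against 1.96 to 2.00 CPM.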

How the results depend on the processing

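No Hox gene was called under any of the 16 alternatives of the test, and the smallest adjusted p among members was 0.42, for Hoxa5 without knockout replicate 3. Over all genes DESeq2 called 4, the fit without the 2 libraries highest in heat-shock transcripts called 1, and fits with one library left out called 0 to 2. Correlations of deviations between same-numbered libraries were 0.23, -0.23, 0.28 and 0.29 for replicates 1 to 4. The closest wildtype library had the same number for knockout replicates 1 and 4 but not for 2 and 3. These few values do not decide whether the replicate numbers pair the samples. The fit with a replicate block called 0 genes, with 1075 genes at an unadjusted p below 0.05, against 578 in the main fit. At an unadjusted p below 0.05 the members numbered 5 without knockout replicate 3, where 1252 of 14678 genes lay below it. They numbered 0 without knockout replicate 4, wildtype replicate 2 or wildtype replicate 4, where 343 to 536 genes did.

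The log2 difference kept its sign under every alternative for 16 of the 29 tested members. Of the 10 members highest per kb and Hoxb3, Hoxb9 was at -0.109 without knockout replicate 2, -0.0591 without wildtype replicate 2, -0.0319 without the libraries with adrenal transcripts and -0.17 without those highest in heat-shock transcripts, with a range of -0.109 to 0.0925 over the fits that left out one library. In that last fit Hoxb4 was at -0.0802 and Hoxa9 at 0.0288. The causes were not tested. The number of expressed members was 29 under every rule tried, but with silence taken as 0 counts in every library 2 were silent and 7 low. Depth limits the statements on silent members, and exon lengths from another annotation limit the order per kb.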
